A study of Mus musculus with 13 samples.

Results

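Arcuate nucleus libraries of 13 mice were ranked by a score of 4 anterior pituitary genes, and the 6 highest were set against the 6 lowest of 13. The score was the mean log2(CPM + 1) of Gh, Prl, Cga and Pou1f1 in a library, where CPM is the count divided by the library's total count and scaled to counts per M (1e6) counts. The 6 highest are called the high-score libraries and the 6 lowest the low-score libraries, and the library in the middle of the ranking, Control_Chow replicate 1, was left out. The members were thus chosen by their measured levels of these 4 genes, so every difference between the sets is a description and carries no test.

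The mice were knockouts (KO), carrying Agrp-Cre and a floxed Klf4 gene, and control littermates, all 20 weeks old. Agrp-Cre acts in cells that express the feeding peptide AgRP. They ate a high-fat diet (HFD) for 10 weeks or regular chow, with 1 library per mouse. On HFD there were 3 KO and 4 control mice, and on chow 3 KO and 3 control mice. The sources used here do not say whether controls carried Cre. The high-score set held 4 KO and 2 control libraries, 5 HFD and 1 chow library, and 4 F and 2 M sex letters. The low-score set held 2 KO and 4 control libraries, 2 HFD and 4 chow libraries, and 3 F and 3 M sex letters. Total counts were 37.46 to 68.24 M in the high-score set and 37.1 to 66.44 M in the low-score set. The titles number HFD and chow mice in separate runs, so diet and any batch tied to those runs cannot be told apart.

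The anterior pituitary lies just beneath the arcuate nucleus, joined to it through the median eminence and a thin collar of tissue, the pars tuberalis. Its endocrine cells make growth hormone (Gh), prolactin (Prl), and thyrotropin, luteinising hormone and follicle-stimulating hormone. The last of these are dimers that share the alpha subunit encoded by Cga, and each takes its identity from a beta subunit, Tshb, Lhb or Fshb. Pou1f1 is the transcription factor of somatotrophs, lactotrophs and thyrotrophs. In a whole adult pituitary Gh and Prl are by far the most abundant of these messages. The thyrotrophs of the pars tuberalis are known for making Cga and Tshb under the control of melatonin rather than of hypothalamic hormones.

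The data went against the name pituitary-rich for the high-score set, because 3 of the 4 genes that define it were near 0. Pou1f1 had 1, 0, 3, 1, 0 and 0 counts in the high-score libraries and 0, 0, 2, 0, 0 and 1 counts in the low-score libraries. Gh had 7, 0, 2, 0, 1 and 87 counts in the high-score libraries and 15, 13, 1, 0, 11 and 1 counts in the low-score libraries. Prl had 45, 1, 0, 1, 2 and 87 counts in the high-score libraries and 34, 0, 6, 0, 0 and 0 counts in the low-score libraries. In CPM, neither Gh nor Prl exceeded 1.56 in any library, and 3 counts correspond to between 0.0440 and 0.0864 CPM. In all of these series the libraries run in order of score, from KO_HFD replicate 3, Control_HFD replicate 4, KO_HFD replicate 1, Control_HFD replicate 2, KO_Chow replicate 2 to KO_HFD replicate 2 in the high-score set. The low-score order is Control_HFD replicate 3, Control_Chow replicate 3, KO_Chow replicate 3, KO_Chow replicate 1, Control_Chow replicate 2 and Control_HFD replicate 1.

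The score therefore followed Cga. Cga had 287, 166, 64.6, 65.8, 32.7 and 1.06 CPM in the high-score libraries, against 0.880, 1.91, 2.13, 1.02, 0.391 and 0.331 CPM in the low-score libraries. In all, 5 high-score libraries stood far above every low-score library, and KO_HFD replicate 2 did not: its Cga lay within the low-score range, and it entered the set through Gh and Prl, at 1.56 CPM each. The middle library had 4.06 CPM of Cga. The score itself was 2.33, 1.85, 1.54, 1.53, 1.30 and 0.938 in the high-score libraries and 0.532, 0.494, 0.489, 0.253, 0.200 and 0.114 in the low-score libraries. Just inside the cut stood KO_HFD replicate 2 at 0.938, and just outside it the middle library at 0.585 and Control_HFD replicate 3 at 0.532. Ranked without Cga, the high-score set shared only 2 libraries with the one described here, and ranked without Gh, without Prl or without Pou1f1 it was the same 6. Results are therefore given with all 6 high-score libraries and with the 5 that remain when KO_HFD replicate 2 is left out.

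**Figure D1:**
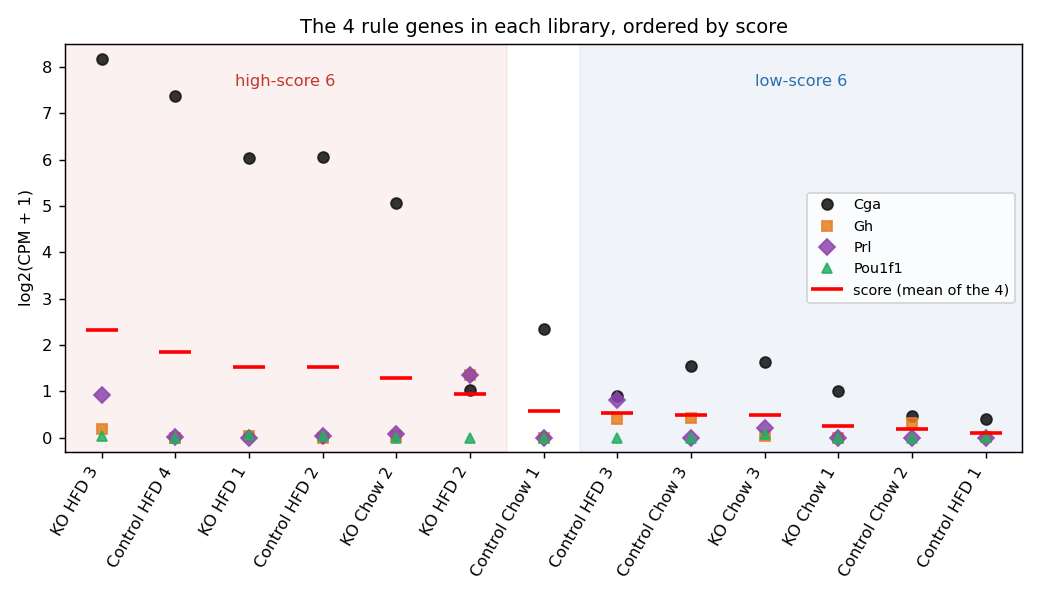
Level of Cga, Gh, Prl and Pou1f1 as log2(CPM + 1) in each of the 13 libraries, ordered by the score (red bars, the mean of the 4); the shaded areas are the 6 high-score libraries (left) and the 6 low-score libraries (right). Cga reached 32.7 to 287 CPM in 5 high-score libraries, while Gh and Prl did not exceed 1.56 CPM in any library.

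The label checks touched both sets. Hsd11b2, which separated KO from control libraries in this series, was at 63.6 CPM in the library labelled Control_HFD replicate 3, against 60.7 to 68.5 CPM in the KO libraries and 0.348 to 1.55 CPM in the other control libraries. The library labelled Control_Chow replicate 3 has an F sex letter and the sex-linked reads of an M library. Both stand in the low-score set. KO_HFD replicate 2 shares the number before the last digit of its title with the library labelled Control_HFD replicate 3. What that number marks is not stated. KO_HFD replicate 2 had 1.56 CPM of Gh and the library labelled Control_HFD replicate 3 had 0.330 CPM, beside 0.350 CPM in Control_Chow replicate 3. For Prl the same libraries had 1.56 and 0.748 CPM, beside 0.899 CPM in KO_HFD replicate 3. One other pair shares such a number, Control_HFD replicate 2 in the high-score set and Control_HFD replicate 1 in the low-score set, with scores of 1.53 and 0.114. Summed CPM of 4 Y-linked genes was 2.44, 1.89 and 2.03 in the 3 F-letter libraries with high Cga (KO_HFD replicate 3, Control_HFD replicate 4 and KO_Chow replicate 2), against 0.0537, 0.220 and 0.481 in the F-letter libraries KO_HFD replicate 2, Control_HFD replicate 3 and KO_Chow replicate 3. M-type libraries held 172 to 208 CPM of these genes. The part of these reads in any result was not tested.

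The promoters of Cga and its 3 partner subunits are shown because each of these 4 messages was higher in the 4 Cga-high HFD libraries than in any low-score library. Each run is the 250 bases before the RefSeq start, on the gene's own strand, from build GRCm38.p6: chr4:34893529-34893778 (plus strand) for Cga, chr3:102782715-102782964 (minus strand) for Tshb, chr7:45420696-45420945 (plus strand) for Lhb and chr2:107059652-107059901 (minus strand) for Fshb. Capitals mark matches on either strand to CAAGGNCA, the half-site of the gonadotroph factor SF-1 (Nr5a1), to TGANGTCA, the cAMP response element and its 1-base variants, to TATAAA, where the basal transcription machinery binds, and to AGATAA, known for binding Gata2 and its relatives.
Cga: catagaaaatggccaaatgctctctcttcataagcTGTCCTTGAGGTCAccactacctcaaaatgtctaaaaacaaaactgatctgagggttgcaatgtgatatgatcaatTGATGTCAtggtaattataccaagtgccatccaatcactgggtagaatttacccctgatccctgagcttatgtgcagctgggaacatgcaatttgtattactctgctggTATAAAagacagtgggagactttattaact
Tshb: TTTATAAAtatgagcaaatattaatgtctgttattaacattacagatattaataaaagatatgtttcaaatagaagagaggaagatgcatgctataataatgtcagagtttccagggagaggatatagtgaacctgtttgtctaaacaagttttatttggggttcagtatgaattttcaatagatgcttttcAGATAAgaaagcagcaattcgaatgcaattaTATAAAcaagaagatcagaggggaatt
Lhb: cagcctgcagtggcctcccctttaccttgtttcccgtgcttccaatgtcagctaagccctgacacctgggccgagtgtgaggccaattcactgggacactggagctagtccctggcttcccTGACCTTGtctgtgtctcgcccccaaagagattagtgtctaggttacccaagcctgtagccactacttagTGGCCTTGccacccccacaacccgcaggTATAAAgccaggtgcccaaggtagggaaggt
Fshb: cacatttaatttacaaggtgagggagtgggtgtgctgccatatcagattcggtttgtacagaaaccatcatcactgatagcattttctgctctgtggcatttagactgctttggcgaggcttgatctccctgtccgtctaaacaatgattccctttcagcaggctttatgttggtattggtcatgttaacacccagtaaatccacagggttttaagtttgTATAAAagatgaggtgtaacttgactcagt
Counted back from the start, Cga has TGANGTCA at -209 to -202 and at -139 to -132, and the first of these overlaps the CAAGGNCA match at -215 to -208. Lhb has CAAGGNCA at -129 to -122 and at -59 to -52, and Tshb has AGATAA at -58 to -53. All 4 have TATAAA between -31 and -22, and Tshb also has it on both strands at the far end of its window. TAATCC, a site of PITX factors, has no match in the 4 windows. Among 32851 promoter windows of the same length, 5.53% hold CAAGGNCA, 7.49% TGANGTCA, 12.4% TATAAA, 6.25% TAATCC and 9.99% AGATAA. A match describes the letters and is not evidence of binding.

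Tshb, the thyrotropin beta subunit, was higher in all 6 high-score libraries than in any low-score library. It had 3.64, 4.82, 1.53, 2.6, 1.68 and 0.681 CPM in the high-score set and 0.572, 0.674, 0.481, 0.508, 0.368 and 0.527 CPM in the low-score set. The means were 2.49 ± 1.52 CPM in high-score and 0.522 ± 0.101 CPM in low-score libraries (SD, n = 6 each), a difference of 1.08 on the log2(CPM + 1) scale, which understates changes of low genes. The lowest high-score value, 0.681 CPM in KO_HFD replicate 2, was barely above the highest low-score value, 0.674 CPM in Control_Chow replicate 3. In bulk tissue, fewer cells of a type and less RNA per cell cannot be told apart.

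Across the 19593 genes with a mean of at least 0.5 CPM, 128 (0.653%) were higher without overlap in the high-score set and 123 (0.628%) lower. Of these, 23 genes (0.117%) were higher by at least 1 log2 unit and 2 (0.0102%) lower by as much. With KO_HFD replicate 2 left out, 229 genes (1.17%) were higher without overlap and 49 (0.25%) by at least 1 log2 unit, among them 22 of the 23, and 1 (0.0051%) was lower by as much. With KO_HFD replicate 1 left out in place of it, 651 genes (3.32%) were higher without overlap and 201 (1.03%) by at least 1, among them all 23. The fixed pituitary lists hold 49 genes, measured or not, of which 3 stand among the 23 higher genes (Tshb, Gata2 and Cyp2f2). Without KO_HFD replicate 2, 6 stand among the genes higher by at least 1 log2 unit (Cga, Lhb and Pitx1 as well). Cga is a rule gene, and KO_HFD replicate 2 was left out for its low Cga, so the place of Cga there was fixed by the choice of libraries.

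The gonadotrophin beta subunits differed in how closely they followed Cga. Lhb had 7.67, 5.72, 4.29, 2.13, 0.961 and 0.0179 CPM in the high-score libraries, against 0.308, 0.135, 0.710, 0.200, 0.368 and 0.0151 CPM in the low-score libraries. The 5 Cga-high libraries lay above every low-score library and KO_HFD replicate 2 lay among the lowest. Fshb had 12.2, 11.6, 21.6, 12.2, 0.214 and 0 CPM in the high-score libraries, against 0.110, 0.108, 0.228, 0.200, 0 and 0.0301 CPM in the low-score libraries. Fshb was thus high in the 4 Cga-high HFD libraries and at the low-score level in KO_Chow replicate 2, which had 32.7 CPM of Cga.

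The subunits were not in a fixed ratio to Cga. On the deposited RPKM scale, which corrects for gene length, Fshb was 2.55%, 4.16%, 19.9%, 11.0% and 0.390% of Cga in KO_HFD replicate 3, Control_HFD replicate 4, KO_HFD replicate 1, Control_HFD replicate 2 and KO_Chow replicate 2. Lhb was 3.76%, 4.83%, 9.34%, 4.55% and 4.14% of Cga in the same 5 libraries. Tshb was 0.266%, 0.608%, 0.497%, 0.828% and 1.08% of Cga. The Fshb share thus ranged most widely, the Lhb share was highest in KO_HFD replicate 1, and the Tshb share was highest in KO_Chow replicate 2. Cga overlaps Platr9 on the opposite strand, Tshb overlaps Tspan2 and Lhb overlaps Ruvbl2, and since the strand setting of the counting is not given, their reads cannot be told apart.

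Pomc, the precursor of corticotropin in the pituitary and of melanocortins in arcuate neurons, did not separate the sets. It had 1878, 948, 1274, 1682, 1769 and 1168 CPM in high-score libraries and 683, 361, 1449, 363, 165 and 1272 CPM in low-score libraries. Its difference was 1.36, and the sets overlapped through KO_Chow replicate 3 and Control_HFD replicate 1.

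**Figure D2:**
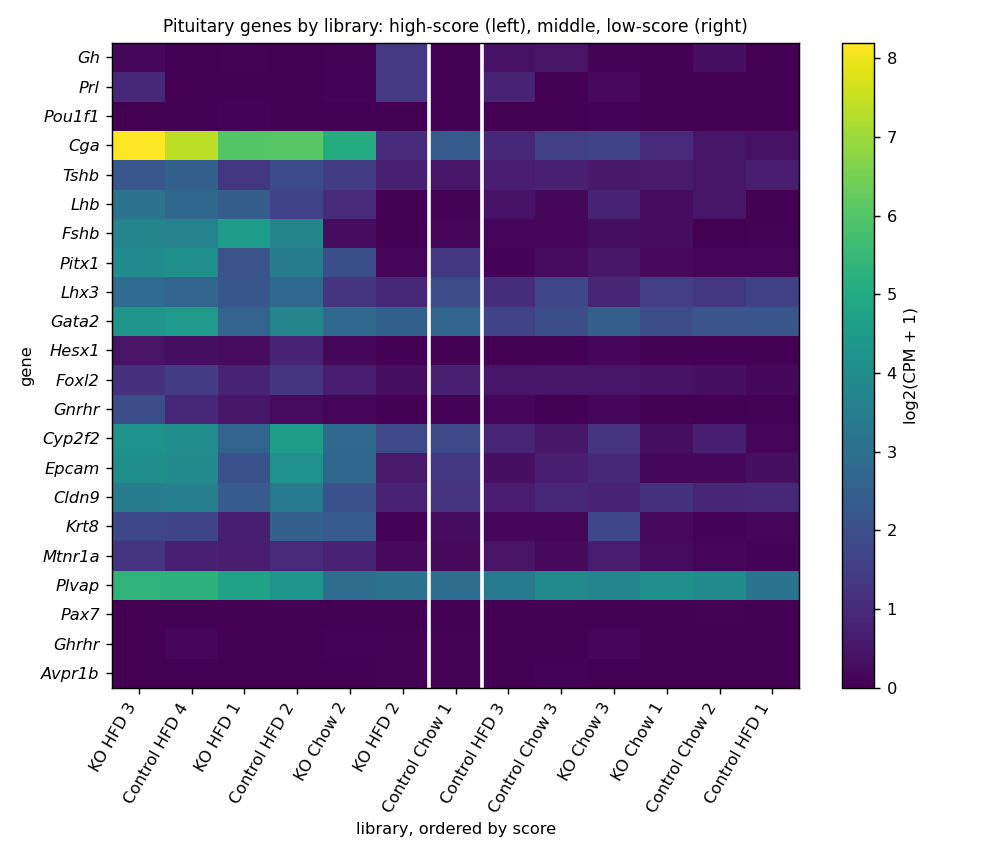
Level of pituitary genes as log2(CPM + 1) (colour scale from 0 to 8.2) in the 13 libraries, high-score on the left, the middle library between the white lines and low-score on the right. Cga, Tshb, Lhb, Pitx1, Cyp2f2, Epcam and Cldn9 are brightest in the 5 libraries on the left, whereas Pax7, Ghrhr and Avpr1b are dark throughout.

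Among transcription factors, Pitx1, a homeobox factor of the developing pituitary, had the largest difference, 2.41, though the sets overlapped. It had 14.6, 16.2, 3.31, 9.92, 3.04 and 0.0717 CPM in high-score libraries and 0.0660, 0.189, 0.456, 0.154, 0.0689 and 0.0903 CPM in low-score libraries. The 5 Cga-high libraries were above all low-score libraries, and the middle library had 1.53 CPM. Gata2, a factor of thyrotrophs and gonadotrophs, had 18.6, 20.7, 5.13, 12.3, 5.98 and 4.84 CPM in high-score libraries, against 2.22, 2.94, 4.64, 2.85, 3.47 and 3.61 CPM in low-score libraries. Its sets did not overlap, and the difference was 1.33. Lhx3, a factor of early pituitary and spinal cord development, reached 6.35, 5.41, 3.53 and 5.97 CPM in the 4 Cga-high HFD libraries and 0.862 to 2.34 CPM in low-score libraries, but 1.33 and 0.896 CPM in KO_Chow replicate 2 and KO_HFD replicate 2.

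Of the 14 transcription factors listed beside Pou1f1, 9 passed the 0.5 CPM mean, 6 of them with a higher and 3 with a lower mean in the high-score set, and the median difference of those 9 was 0.23 against 0.0039 for all measured genes. Nr5a1, which marks gonadotrophs and also the neighbouring ventromedial nucleus, spanned 16.4 to 70.3 CPM in high-score and 2.69 to 96.6 CPM in low-score libraries. Tbx19, the corticotroph factor, had 1.02 to 3.76 CPM in high-score and 2.33 to 8.99 CPM in low-score libraries. Isl1, Six6 and Zbtb20, which hypothalamic cells also express, overlapped as well, with differences of -0.11, 0.84 and 0.17. Hesx1 reached 0.133 to 0.737 CPM in the 5 Cga-high libraries and at most 0.0760 CPM in low-score libraries. Neurod4 did not pass the minimum and reached 1.26 CPM in KO_HFD replicate 3. Pax7 and Lhx4, which act in melanotrophs or in pituitary progenitors, stayed at or below 0.0689 CPM in every library.

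Receptors for releasing factors overlapped between the sets except for Trhr. Gnrhr, the gonadotroph receptor for GnRH, had 2.92, 0.909, 0.419, 0.184, 0.107 and 0 CPM in high-score libraries and 0.110, 0, 0.0760, 0, 0 and 0.0301 CPM in low-score libraries. It was highest in KO_HFD replicate 3, the library with most Cga, and the sets overlapped. Ghrhr, the receptor of somatotrophs, did not exceed 0.103 CPM, and Avpr1b, the vasopressin receptor of corticotrophs, did not exceed 0.0539 CPM. Trhr, the receptor for thyrotropin-releasing hormone, which thyrotrophs and brain neurons both carry, was lower without overlap, at 5.77, 7.2, 9.71, 7.77, 7.71 and 9.44 CPM in high-score and 11.9, 13.7, 11.2, 15.2, 11.2 and 10.7 CPM in low-score libraries. Its difference was -0.58. Crhr1, Drd2, Sstr2, Sstr5 and Ghsr overlapped, with differences of 0.28, -0.02, 0.29, -0.13 and 0.30.

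Among other endocrine genes, Cyp2f2, a cytochrome P450 best known from airway club cells, had the largest difference of any gene outside the rule that did not overlap, 2.72. It had 17.5, 15.2, 5.07, 23.4, 6.03 and 2.47 CPM in high-score libraries, against 0.792, 0.458, 1.37, 0.231, 0.644 and 0.0753 CPM in low-score libraries. Foxl2, a gonadotroph and thyrotroph factor, had 1.24, 1.76, 0.726, 1.37, 0.534 and 0.251 CPM in high-score libraries and 0.135 to 0.404 CPM in low-score libraries, so that the overlap came from KO_HFD replicate 2. Tgfbr3l, a gonadotroph coreceptor for inhibin B, had 4.82 to 8.47 CPM in high-score and 3.02 to 5.84 CPM in low-score libraries. The granins Chgb and Scg2, the imprinted gene Dlk1 and the others of this list (Rbp4, Angpt1, Spink8, Oacyl, Eya1 and Dgkk) overlapped, with differences between -0.23 and 0.74. In all, 9 of the 12 had a higher mean in the high-score set, with a median of 0.50.

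Genes named for the pars tuberalis and melatonin were not higher as a group: 2 of 5 measured genes had a higher mean in the high-score set, with a median of -0.22. Mtnr1a, the melatonin receptor and the most specific of them, did not pass the 0.5 CPM mean. It had 1.38, 0.674, 0.548, 0.962, 0.721 and 0.161 CPM in high-score libraries and 0.352, 0.162, 0.583, 0.185, 0.0919 and 0.0602 CPM in low-score libraries. In all, 4 of the 5 Cga-high libraries exceeded every low-score library, and KO_HFD replicate 1 fell just short of KO_Chow replicate 3. Cck, a gut and brain peptide, had 36.6, 38.0, 9.0, 20.2, 9.82 and 3.65 CPM in high-score and 3.59, 3.96, 4.89, 12.8, 29.7 and 3.37 CPM in low-score libraries. Eya3, Nmu, Chrna4 and Tac1, which neurons also express, overlapped with differences of 0.05, -0.22, -0.31 and -0.98.

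Among the listed genes of pituitary stem and folliculostellate cells, Epcam and Cldn9, chosen after their values were seen, were high in the Cga-high libraries. Epcam, an epithelial adhesion molecule, had 15.8, 14.6, 3.16, 17.4, 5.69 and 0.520 CPM in high-score libraries and 0.264, 0.620, 0.912, 0.138, 0.138 and 0.256 CPM in low-score libraries. Cldn9, a claudin of epithelial tight junctions, had 10.0, 10.5, 4.11, 9.33, 3.15 and 0.770 CPM in high-score and 0.550, 0.889, 0.735, 1.32, 0.850 and 0.933 CPM in low-score libraries. Both separated the 5 Cga-high libraries from the low-score set, and KO_HFD replicate 2 lay inside the low-score range for each. The other epithelial members did not follow Cga in the same way. Cdh1, the epithelial cadherin, had 26.7, 39.8, 0.903, 31.7, 11.6 and 33.6 CPM in high-score and 0.527 to 8.30 CPM in low-score libraries, so it was inside the low-score range in KO_HFD replicate 1. Krt8, a keratin of simple epithelia, had 0.613 CPM in KO_HFD replicate 1 and 2.38 CPM in the low-score library KO_Chow replicate 3. Its partner keratin Krt18 overlapped with a difference of 0.12. Sox9, S100b and Sox2, which astrocytes and tanycytes also express, overlapped with differences of 0.26, 0.26 and 0.06. All 10 members had a higher mean in the high-score set, with a median of 0.89 and summed levels of 306.4 to 517.5 CPM in high-score and 220.4 to 430.6 CPM in low-score libraries.

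Further genes with differences of at least 1 without overlap averaged at least 2 CPM. Cyp1b1, a cytochrome P450 of perivascular and meningeal cells, differed by 1.91, with 6.68 to 28.2 CPM in high-score and 1.15 to 5.73 CPM in low-score libraries. Emilin1, Tgfbi and Mfap4, proteins of the extracellular matrix, differed by 1.56, 1.41 and 1.22. Cdkn1c, an imprinted inhibitor of the cell cycle, differed by 1.55, with 12 to 49.8 CPM in high-score and 5.29 to 12 CPM in low-score libraries, the sets meeting at 12 CPM without overlap. Txnip, an inhibitor of thioredoxin that responds to glucose, differed by 1.19, with 24.8 to 51.8 CPM in high-score and 11.8 to 23.9 CPM in low-score libraries. Zmynd15, Moxd1 and the secreted C1qtnf1 differed by 1.19, 1.12 and 1.10. Txnip and Cdkn1c overlap the predicted genes Gm15441 and Gm44732 on the opposite strand. Zmynd15 likewise overlaps Cxcl16, Mfap4 overlaps Mapk7 and C1qtnf1 overlaps Gm11747. Since the strand setting of the counting is not given, the reads of these pairs cannot be told apart.

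Genes lower in the high-score set without overlap numbered 123, against 128 higher, but 2 of the 123 and 23 of the 128 differed by at least 1. Npsr1, the neuropeptide S receptor, had 3.04, 2.18, 0.807, 2.46, 3.82 and 0.842 CPM in high-score libraries, against 4.16, 6.85, 5.22, 5.51, 4.27 and 5.09 CPM in low-score libraries. C1ql3, a secreted synaptic organiser, had 7.71, 5.86, 8.05, 6.44, 9.26 and 9.58 CPM in high-score libraries, against 18.6, 16.9, 11.9, 26.4, 22.5 and 10.0 CPM in low-score libraries. Each differed by -1.03, and no other gene without overlap was lower by 1 or more. Opcml, a neuronal cell adhesion molecule, differed by -0.73, with 43.5 to 55.0 CPM in high-score and 60.4 to 151 CPM in low-score libraries. Beside Trhr, the next were Cdh8 (-0.53), Oprk1 (-0.52), Stk26 (-0.48), Pgap1 (-0.42), B3galt2 (-0.42), St8sia1 (-0.40), March1 (-0.38) and Slc5a3 (-0.36), among them the neuronal cadherin Cdh8 and the kappa opioid receptor Oprk1. All 10 listed general neuron genes had a lower mean in the high-score set, with a median of -0.17, none without overlap, and summed levels of 3907 to 5652 CPM in high-score and 4676 to 6480 CPM in low-score libraries.

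**Figure D3:**
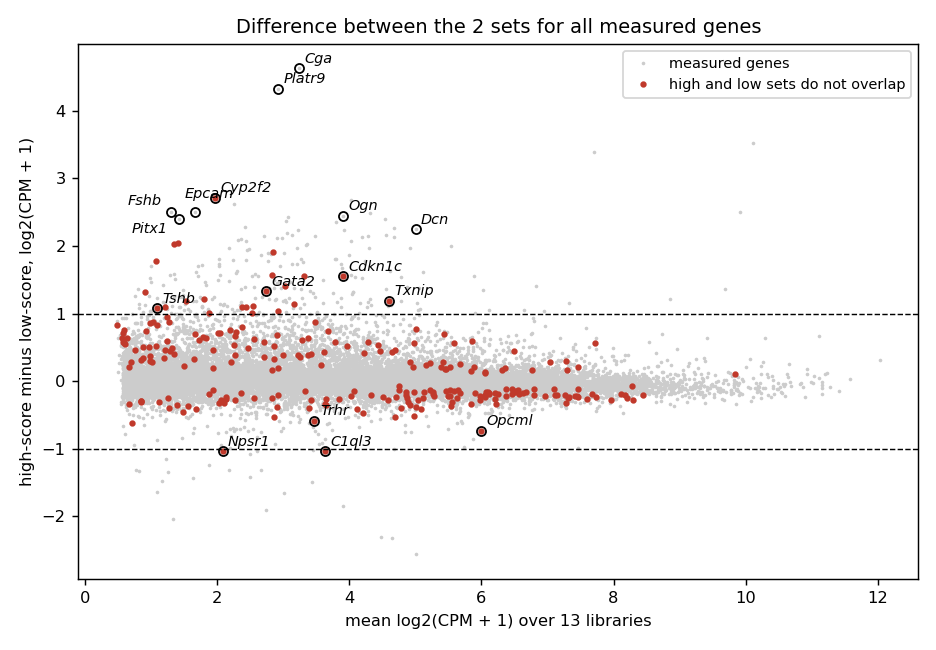
Difference between the mean log2(CPM + 1) of the 6 high-score and the 6 low-score libraries (vertical axis) against the mean over all 13 libraries (horizontal axis) for the 19593 measured genes; red points are genes whose sets do not overlap, and dashed lines mark differences of 1 and -1. Cga and Platr9 stand highest without being red, because KO_HFD replicate 2 lies in the low-score range, and Cyp2f2, at 2.72, is the highest of the red points.

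By likeness to the score over the 13 libraries, measured as the mean absolute distance between centred and scaled values, the nearest of 15952 genes were Platr9 at 0.191 SD, Sntb2 at 0.192, Cga at 0.195, Cyp2f2 at 0.260, F11r at 0.262, Gm15883 at 0.265, Trpv4 at 0.267 and Rgcc at 0.276. Cga is a rule gene, and Platr9 and Gm15883 overlap Cga and Cyp2f2 on the opposite strand. Sntb2, a syntrophin of the dystrophin complex, had 11.1, 6.95, 6.66, 6.71, 5.47 and 4.25 CPM in high-score libraries and 4.0, 4.23, 4.31, 3.52, 3.31 and 3.84 CPM in low-score libraries. F11r, a tight junction adhesion molecule, had 12.1 to 22.0 CPM in high-score and 7.76 to 13.4 CPM in low-score libraries. Trpv4, an osmosensitive cation channel, had 2.65 to 7.23 CPM in high-score and 0.846 to 2.58 CPM in low-score libraries, with no overlap.

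Genes of the meninges and of fibroblasts were also high in most high-score libraries, but in a different combination. Their 10 listed members, all with a higher mean in the high-score set, had a median difference of 2.20, and none was free of overlap. Their summed level was 515.7, 605.8, 68.95, 497.4, 269.3 and 489.2 CPM in the high-score libraries, against 172.4, 55.82, 90.82, 39.39, 71.41 and 45.98 CPM in the low-score libraries. KO_HFD replicate 1, with 64.6 CPM of Cga, had a meningeal sum within the low-score range, and KO_HFD replicate 2, with 1.06 CPM of Cga, had 489.2 CPM. The middle library had 373 CPM of meningeal genes and 4.06 CPM of Cga. With KO_HFD replicate 1 left out, all 10 were free of overlap, beside 3.32% of all measured genes that were then higher without overlap. That library had the lowest meningeal sum of the high-score set, so leaving it out favoured this outcome. Dcn, a proteoglycan of connective tissue, had 133, 141, 20.7, 122, 39.8 and 49.7 CPM in high-score and 25.9, 13.8, 20.1, 9.59, 10.2 and 8.19 CPM in low-score libraries. Ogn, a proteoglycan of fibroblasts, had 46.2, 51.6, 2.32, 48.5, 32.5 and 74.0 CPM in high-score and 22.8, 3.15, 4.87, 2.12, 4.85 and 2.65 CPM in low-score libraries. None of the 10 was at 0, and the part of meningeal tissue in the differences above was not tested.

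**Figure D4:**
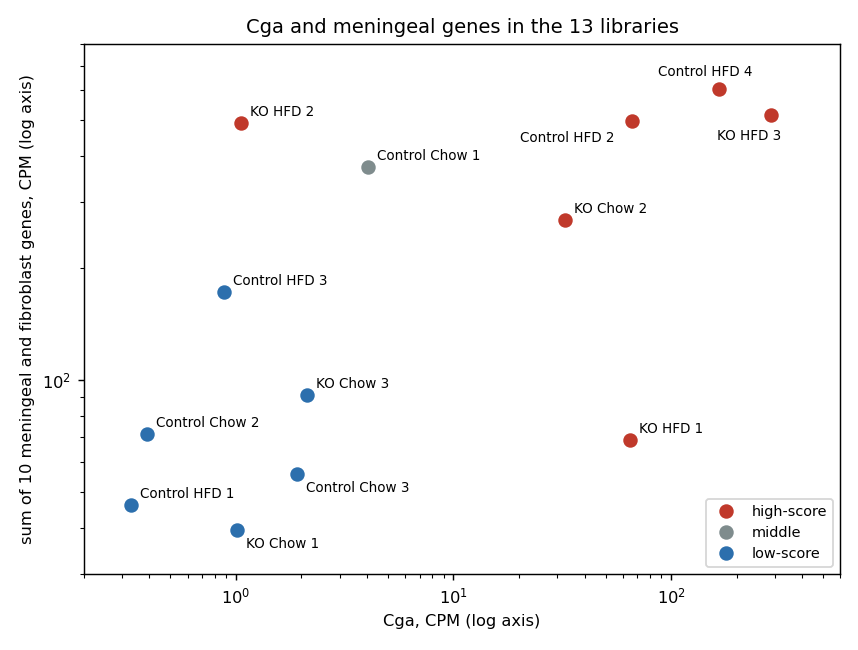
Cga in CPM (horizontal log axis) against the summed CPM of 10 meningeal and fibroblast genes (vertical log axis) in each of the 13 libraries. In all, 4 high-score libraries are high on both axes, KO_HFD replicate 1 is high for Cga alone (64.6 against 68.95 CPM), and KO_HFD replicate 2 and the middle library are high for the meningeal genes alone (489.2 and 373 CPM).

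Other tissue lists moved by smaller amounts. Microglial genes had 12 of 12 members higher and a median of 0.47, with summed levels of 642.5 to 858.0 CPM in high-score and 420.0 to 675.2 CPM in low-score libraries, and Tmem119, C1qa, C1qc and Trem2 did not overlap. C1qc, a subunit of complement C1q, had 60.6 to 90.1 CPM in high-score and 37.6 to 59.1 CPM in low-score libraries. Tanycyte genes had 11 of 12 members higher and a median of 0.68, but the sums of 1004, 321.4, 282.9, 694.9, 553.5 and 128.9 CPM in high-score libraries, against 171.9 to 439.4 CPM in low-score libraries, put KO_HFD replicate 2 below every low-score library. Pituicyte genes had 7 of 7 higher (median 0.59), fenestrated endothelium 6 of 6 (0.53), myelin 12 of 12 (0.64), AgRP neurons 10 of 10 (0.45) and POMC neurons 8 of 8 (0.34), all with overlap for every member. With KO_HFD replicate 2 left out, the pituicyte median was 0.91 and the tanycyte median 0.97. Scn7a and Adm, which stand in both lists, were then higher without overlap by 2.13 and 1.73, and the tanycyte gene Dio2 by 1.15. The other tanycyte and pituicyte members still overlapped, and so did every fenestrated endothelium, myelin, AgRP neuron and POMC neuron gene. Plvap, a protein of fenestrated capillaries, had 38.9, 38.6, 25.5, 18.5, 6.65 and 7.45 CPM in high-score and 8.01 to 16.4 CPM in low-score libraries, so it was above the low-score range in the 4 Cga-high HFD libraries and below it in KO_Chow replicate 2 and KO_HFD replicate 2. Brain endothelium and pericytes (median 0.16), choroid plexus (0.15), ependymal cilia (0.14), astrocytes (0.01), red blood cells (-0.03) and housekeeping genes (-0.03) differed little by median. Single members could differ by more. Folr1 of the choroid plexus list differed by 1.08 with overlap, and by 1.33 without overlap when KO_HFD replicate 2 was left out. The KNDy, dopamine and GHRH, neighbouring nuclei, cortical, secretory and ribosomal lists had medians between -0.09 and 0.21. Within the neighbouring nuclei list, single members differed by more than that median, all with overlap. Avp and Oxt, hormones of the magnocellular neurons, differed by 3.53 and 3.39. Avp had 2329 to 6642 CPM in high-score libraries and 22.7 to 3813 CPM in low-score libraries, where KO_Chow replicate 3 was the one at 3813 CPM. Oxt had 360 to 1156 CPM in high-score and 2.76 to 543 CPM in low-score libraries. Pmch, the melanin-concentrating hormone precursor of the lateral hypothalamus, and Hdc, the histamine-making enzyme of the tuberomammillary nucleus, differed by -2.31 and -2.56. Pmch had 5.42 to 14.1 CPM in high-score and 3.07 to 357 CPM in low-score libraries. Hdc had 4.28 to 25.8 CPM in high-score and 15.0 to 232 CPM in low-score libraries. The part of any of these lists in the other differences was not tested.

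Most high-score libraries were on HFD, so the differences were also read within each diet. Among HFD libraries, Cga differed by 5.08 between 5 high-score and 2 low-score libraries, without overlap, and among chow libraries by 3.91 between the 1 high-score and 4 low-score libraries. Tshb differed by 1.11 on HFD and 0.83 on chow, Gata2 by 1.58 and 0.66, Cyp2f2 by 2.97 and 2.11, and Epcam by 2.65 and 2.24. Because Tshb, Gata2 and Cyp2f2 did not overlap between the full sets, they could not overlap within a diet. Epcam, which overlapped between the full sets, did not overlap in either diet. Fshb differed by 3.02 on HFD and 0.10 on chow, with overlap in both, and Plvap by 1.27 on HFD and -0.99 on chow. A single chow library has no spread of its own. With each diet's mean subtracted, 0 genes differed by at least 1 without overlap in either direction, against the 23 higher and 2 lower without that step. High-score and low-score libraries are unequally spread over the diets, so the subtraction also removes part of the difference between the sets. After it, Cga still differed by 3.49.

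The labelled groups could be tested, because the score does not use them. Its mean was 1.26 ± 0.77 in HFD (n = 7) and 0.553 ± 0.394 in chow libraries (n = 6), a difference of 0.709 with an exact two-sided permutation p of 0.0676, adjusted to 0.473 over 7 tests. It was 1.14 ± 0.75 in KO (n = 6) and 0.758 ± 0.667 in control libraries (n = 7), a difference of 0.382 with an exact permutation p of 0.347, adjusted 0.486. Between F and M letters the means were 1.13 ± 0.73 (n = 7) and 0.703 ± 0.663 (n = 6), a difference of 0.430 with an exact permutation p of 0.285, adjusted 0.486. Within diets, KO exceeded control by 0.594 on HFD (exact permutation p of 0.343) and by 0.253 on chow (exact permutation p of 0.70). Within genotypes, HFD exceeded chow by 0.922 in KO (exact permutation p of 0.20) and by 0.581 in controls (exact permutation p of 0.457). Groups of 3 against 4 cannot give an exact p below 0.0571, nor 3 against 3 below 0.10. None of the 7 differences passed the test against the spread between mice, and without Control_HFD replicate 1, Control_HFD replicate 3 or KO_Chow replicate 2 the unadjusted exact p for HFD against chow was 0.0195, 0.0455 and 0.0455.

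**Figure D5:**
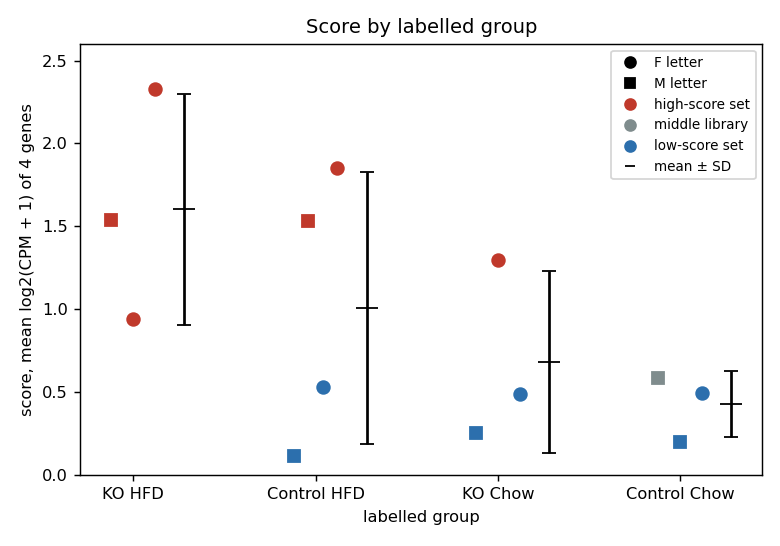
Score (mean log2(CPM + 1) of the 4 genes) of each library by labelled group, with the mean and SD of each group beside its points; circles are F and squares M letters, and colours give the set. The groups overlap, from 0.938 to 2.33 in KO on HFD, 0.114 to 1.85 in controls on HFD, 0.253 to 1.30 in KO on chow and 0.200 to 0.585 in controls on chow.

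Fitted across 23622 genes with edgeR's quasi-likelihood test, no gene passed an adjusted p of 0.05 in any of 4 comparisons (0.0% of genes in each). Thus 0 of the 43 fixed pituitary genes in the fit were called in either direction, which does not show that they were unchanged. Unadjusted p was under 0.05 for 393 genes for KO against control on HFD, 3050 on chow, 1905 in controls and 957 in KO for HFD against chow, and DESeq2 called 3, 220, 27 and 15 genes. Cga differed between HFD and chow by 4.32 ± 2.47 log2 units in controls (SE, edgeR adjusted p of 0.671) and by 3.61 ± 2.31 in KO (0.984). Between KO and control it differed by 0.81 ± 1.91 on HFD (edgeR adjusted p of 1) and by 1.52 ± 2.62 on chow (0.841). Tshb and Fshb had the smallest unadjusted edgeR p of the Cga partners, with differences between HFD and chow in controls of 2.02 ± 0.87 and 6.65 ± 2.75 (SE, edgeR adjusted p of 0.604 for each). With the score as a further term in the fit, no gene passed in any of the 4 comparisons either, and 459, 3074, 1258 and 1119 genes had an unadjusted p under 0.05.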

How the data were processed

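Bulk RNA was counted in 1 arcuate nucleus library from each of 13 mice. The authors deposited 1 table of raw counts and RPKM with 55421 identifiers. The submitters' processing notes name build mm10 and FastQC, STAR, STAR-Fusion, Subread and edgeR, without roles or versions; the sources used here give no annotation release or strand setting. Of the identifiers, 54673 match GENCODE M21, and 14646 have no read. Libraries hold 34.7 to 68.2 M counts, so 1 count equals 0.0147 to 0.0288 CPM. Counting error weighs most in genes with few counts, among them those near or below 1 CPM. Its size was not set against the spread between mice.

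CPM was computed from the column totals, and differences are between means of log2(CPM + 1). A gene counts as measured at a mean of at least 0.5 CPM, and as going with the score when the 6 and 6 libraries do not overlap and differ by at least 1. RPKM was used only for ratios to Cga within a library. Groups were compared with exact permutation tests of the score (SciPy 1.17.1) and with edgeR 4.0.16 (limma 3.58.1, R 4.3.3; TMM, quasi-likelihood, 4 groups plus sex letter, Benjamini-Hochberg over 23622 genes). DESeq2 1.42.0 was an alternative. Scripts were tested on simulated data. The genes named are all those of the first 6 gene lists, up to 4 of each other list (highest mean CPM, or without overlap), the 12 largest differences per direction without overlap and a mean of at least 2 CPM, and the 8 most like the score, except that a few of these are not reported here. Genes named because they follow Cga without KO_HFD replicate 2 (Epcam, Cldn9) and Hsd11b2 were chosen after their values were seen. The libraries, gene lists and tests were chosen with earlier results of these data known. Same-group libraries differed beyond sampling noise, so none was counted as a repeat.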

Additional observations from a re-analysis of the deposited data

Results flagged for a closer look

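Within groups of 4 to 7 libraries, 8 of the 40 groups checked held a library far from the others. About 1 in 20 groups would be so marked by chance if the values followed a normal distribution. Gh and Prl, with many counts near 0, need not follow one, so the 8 cannot be read as an excess. The score in chow libraries was highest in KO_Chow replicate 2 at 1.30, with the next library at 0.585, and Tshb in chow libraries was highest in the same library at 1.68 CPM, with the next at 0.674 CPM. Gh was highest in KO_HFD replicate 2 at 1.56 CPM, with the next at 0.140 CPM among KO and 0.330 CPM among HFD libraries. Gh among controls on HFD was highest in the library labelled Control_HFD replicate 3 at 0.330 CPM, with the next at 0.0151 CPM. Prl was highest in that same library at 0.748 CPM among controls on HFD and among all controls, with the next at 0.0205 CPM in each. Prl in chow libraries was highest in KO_Chow replicate 3 at 0.152 CPM, with the next at 0.0534 CPM, which is a difference of few counts. These groups share libraries, so the 8 are not independent.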

How the results depend on the processing

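The sets rest on Cga and on single libraries. The 23 higher and 2 lower genes became 38 higher at a pseudocount of 0.1 CPM, 6 and 0 at 5 CPM, 13 and 1 at a mean of at least 5 CPM, 71 and 4 with the 4 highest against the 4 lowest libraries, and 0 and 0 both with within-diet values (each diet's mean subtracted) and with the score taken without Cga. Leaving out 1 library gave 18 to 201 higher and 1 to 9 lower genes, with 201 and 1 without KO_HFD replicate 1, 49 and 1 without KO_HFD replicate 2, 70 higher without KO_Chow replicate 3, 1 lower without KO_Chow replicate 1 or Control_Chow replicate 2, and 9 lower without Control_HFD replicate 1. With the score taken without Cga, these reported differences turned sign: Tshb (-0.35), Gata2 (-0.44), Cyp2f2 (-0.71), Gm15883 (-0.57), Cyp1b1 (-0.14), Emilin1 (-0.25), Cdkn1c (-0.26), Tgfbi (-0.18), Mfap4 (-0.18), Txnip (-0.0699), Zmynd15 (-0.40), Moxd1 (-0.67), C1qtnf1 (-0.29), Trpv4 (-0.0786), Cga (-1.42), Platr9 (-1.32), Pitx1 (-1.03), Fshb (-0.63), Lhb (-0.13), F11r (-0.0578), Sntb2 (-0.0363), Npsr1 (0.0554), C1ql3 (0.41), Trhr (0.0209), Opcml (0.0425), Cdh8 (0.23), Stk26 (0.0573), Pgap1 (0.23), B3galt2 (0.21), St8sia1 (0.0499), March1 (0.0037) and Slc5a3 (0.15). The high-score set of that ranking, which rests on the low counts of Gh, Prl and Pou1f1, shares only 2 libraries with the main one. The HFD against chow difference in score passed an unadjusted p of 0.05 at a pseudocount of 0.1 CPM (1.02, exact permutation p of 0.0466), and ranged from 0.531 to 0.900 with 1 library left out; F against M passed without Cga in the score (0.253, exact permutation p of 0.0245) and ranged from 0.230 to 0.597, and KO against control from 0.145 to 0.565. In the fits across all genes, where 0 genes passed, Hsd11b2 alone passed for KO against control on HFD without Control_HFD replicate 3 and without both libraries that go against a label (1 gene each), and on chow with only those groups in the fit or without those libraries. Without the filter on low counts Gja3 passed on chow (1 gene) and 5 genes for HFD against chow in controls (Cachd1, Gja3, Gm45774, Grm4 and Mt2). With 1 library left out, 0 to 1 gene passed in each KO against control comparison (Dbi without KO_Chow replicate 1), 0 to 2 for HFD against chow in controls (Gm45774 and Mt2 without Control_Chow replicate 2) and 0 in KO. DESeq2 called 3, 220, 27 and 15 genes. Cga reversed for KO against control on HFD without KO_HFD replicate 3 (-0.34, edgeR adjusted p of 1) and on chow without KO_Chow replicate 2 (-0.71, 0.959); with 1 library left out it ranged up to 2.07 on HFD and 2.87 on chow. Leaving out both libraries that go against a label, an alternative chosen after seeing the data, gave 32 higher and 2 lower genes. The score as a further term is not given for Cga, which the term contains. TMM moved the median of all genes by -0.0155. Causes were not tested. No paired analysis was possible because replicate numbers only follow accession order. At 37.1 to 68.24 M counts, Gh, Prl and Pou1f1 are limited by single reads.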

Other observations

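Klf4, the targeted gene and a zinc-finger factor also expressed in vessels and connective tissue, was higher in the high-score libraries with high meningeal sums. It had 5.95, 4.04, 2.40, 5.61, 3.12 and 5.39 CPM in the high-score libraries in order of score, against 3.10, 2.59, 2.74, 2.14, 2.37 and 1.58 CPM in the low-score libraries. KO_HFD replicate 1, the Cga-high library with the low meningeal sum, had less Klf4 than 3 low-score libraries, and KO_HFD replicate 2, with high meningeal genes and little Cga, had 5.39 CPM. Without KO_HFD replicate 1 the sets did not overlap, and the difference was 0.76 on the log2(CPM + 1) scale. That library had the lowest Klf4 of the high-score set, so leaving it out favoured this outcome. In the same setting 3.32% of all measured genes were higher without overlap. The separation of Klf4 was close to a tie, because KO_Chow replicate 2 (3.12 CPM) stood just above Control_HFD replicate 3 (3.10 CPM). Both sets hold KO and control libraries, and the part of genotype in this ordering was not tested.

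With KO_HFD replicate 2 left out, the genes higher without overlap by the largest amounts after Cga and Platr9 included genes outside every fixed list. Ces1d, a carboxylesterase, differed by 3.26, and Fndc3c1 by 3.02. Tmem30b differed by 1.89, Wfdc2, a secreted epithelial protein, by 1.61, and the claudins Cldn3 and Cldn7 by 1.15 and 1.03. These were picked after their values were seen.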
